A study of Mus musculus with 10 samples.

Results

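Kainate at 14 mg/kg was compared with saline in the hippocampus of wild-type mice, using 4 of the 10 arrays of the series. The members are the 2 arrays of wild-type mice given kainate and the 2 arrays of wild-type mice given saline, chosen by their titles and paired by replicate number. Each array (Affymetrix Mouse Genome 430 2.0, an oligonucleotide array read as 1 signal per probe set) held RNA pooled from the hippocampi of 3 to 4 mice aged 3 weeks. The wild-type strain is given as C57BL6 F1/J, a tag that stands on kainate replicate 2 and saline replicate 1 and is missing from the other 2 wild-type arrays. The other 6 arrays came from mice labelled TetO-A-CREB-95 C57BL6 F1/J, which carry A-CREB, a dominant-negative inhibitor of the transcription factor CREB, and received kainate at 14 mg/kg, kainate at 18 mg/kg or saline (2 arrays each). The promoter that drives the tetracycline transactivator in those mice, the sex of the mice, and the time between injection and dissection are not given in the labels. Each group has 2 pools, so a p-value here reflects how pools vary rather than how mice do, and precision is limited by how few arrays there are.

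Kainate is an agonist of ionotropic glutamate receptors of the kainate and AMPA types and evokes limbic seizures, in which hippocampal pyramidal and granule cells fire strongly. Firing lets calcium into neurons and activates kinases that phosphorylate CREB and the serum response factor, which sit on the promoters of immediate-early genes before the stimulus. Immediate-early genes are transcribed without new protein synthesis: some encode transcription factors (the Fos, Jun, Egr and Nr4a families, Npas4), others act directly at synapses (Arc, Homer1) or are secreted (Bdnf, Inhba), and a further set ends the signal by removing phosphate from MAP kinases or by switching off G proteins.

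In wild-type hippocampus more genes rose than fell after kainate. Of 13218 genes tested 82 rose, which is 0.62% of them, and 12 fell, which is 0.0908% (limma with the replicate number as a block, Benjamini-Hochberg adjusted p under 0.05 over all genes). Npas4, Atf3, Fosb, Ptgs2 and Fos had the highest fold changes among the genes that rose, and these and the other rises included transcription factors, secreted proteins, phosphatases and G-protein regulators. Of the 82 genes 23 rose by 2 or more on the log2(signal + 22) scale, 45 by 1 to 2 and 14 by less than 1. The median rise was 1.47 and the smallest 0.69 (Noct). The median signal of the 82 genes was 1955 after kainate, against 686 after saline. Falls were smaller, with a median change of -0.97, and 4 of the 12 reached -1 or lower. The count of rises was 24 (0.182% of genes) and that of falls 0 in the limma fit without the replicate block. In that fit 466 of 13218 genes had an unadjusted p under 0.05, and 223 of these 466 were lower. Leaving out saline replicate 2 gave 24 rises and 0 falls, leaving out kainate replicate 1 gave 46 and 10, leaving out saline replicate 1 gave 68 and 5, and leaving out kainate replicate 2 gave 67 and 10.

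Read pair by pair, 60 genes (0.454%) were higher after kainate by at least 1 on the log2 scale in both pairs, 10 (0.0757%) were lower by at least 1 in both, and 13 moved by at least 1 in opposite directions. Replicate 1 alone held 164 genes higher and 118 lower by that amount, and replicate 2 alone held 188 and 172. Of the 60 genes 53 were among the 82 that rose by limma. The other 7 were Nptx2, Trib1, Arc, Egr2, Dusp5, Tacc3 and Lcn2. Nptx2, a secreted pentraxin that clusters AMPA receptors, had signals of 3140 and 2649 after kainate, against 1086 and 228 after saline, with pair differences of 1.51 and 3.42 and an adjusted p of 0.0502 by limma. Arc, the dendritic regulator of AMPA receptor endocytosis, had 5632 and 5060 after kainate, against 1924 and 913 after saline, with an adjusted p of 0.0518. Egr2, a zinc finger transcription factor, had 963 and 1392 after kainate, against 351 and 310 after saline, with an adjusted p of 0.0556. In all 3 genes both kainate arrays lay above both saline arrays, and the rise was larger in pair 2 than in pair 1. Of the 10 genes lower in both pairs only Hoxa9, Pmf1 and Lrp8 fell by limma.

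**Figure D1:**
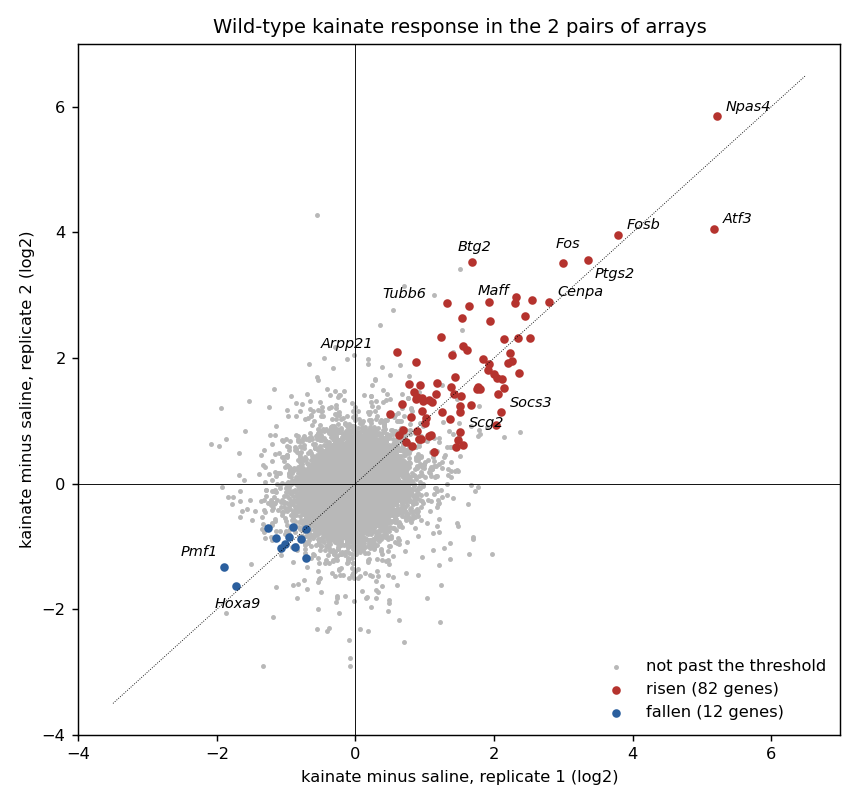
Each point is 1 of 13218 genes, placed by its kainate minus saline difference, log2(signal + 22), in the pair of replicate 1 arrays (horizontal axis) and of replicate 2 arrays (vertical axis). The 82 risen genes (red) lie in the upper right quadrant and the 12 fallen genes (blue) in the lower left. The dotted line marks equal differences: the pairs lie within 0.5 of each other for 50 risen genes and over 1 apart for 9.

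A fit with the replicate block favours genes whose pairs are alike, so how far the pairs of called genes agree is given as a description. Among the 82 risen genes the difference was larger in pair 2 for 43 and in pair 1 for 39, the pairs lay within 0.5 of each other for 50, and 9 lay over 1 apart. Both kainate arrays were above both saline arrays for 81 of the 82. Kdm6b, a histone H3 lysine demethylase, was the exception, with 1185 and 2905 after kainate, against 596 and 1294 after saline. The 9 genes that differed most between the pairs included Btg2 (1.69 and 3.53), Maff (1.64 and 2.83) and Tubb6 (1.33 and 2.87), for which saline replicate 2 was the lowest of the 4 arrays, and Atf3 (5.18 and 4.06). Maff and Tubb6 had signals of 15.9 and 12.7 on that array, below the 22 added before taking logs, so their fold changes are uncertain. With 5.5 added the change was 2.69 for Maff and 2.6 for Tubb6, and with 88 added it was 1.43 and 1.29.

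Immediate-early transcription factors had the highest list median. Of 31 measured members 20 rose and 0 fell, against 0.62% and 0.0908% of all genes tested. The median change was 1.46, against -0.05 over all genes tested. Of 23 measured Kruppel-like and other constitutive neuronal transcription factors 0 rose and 1 fell, with a median change of -0.05. Npas4, a neuron-specific bHLH-PAS factor induced by calcium entry, had signals of 10106 and 11054 after kainate, against 251 and 170 after saline, a log2 change of 5.53 (SE 0.23, limma adjusted p = 1.62e-08). Atf3, a stress-induced basic leucine zipper factor, had 1849 and 1138 after kainate, against 29.7 and 47.7 after saline, a change of 4.62 (SE 0.34, limma adjusted p = 6.36e-06). In both genes the lower kainate array was over 10 times the higher saline array. Atf3 had the lowest saline signal of the 82 risen genes, and its change depended on the number added before taking logs, at 5.07 with 5.5 and 3.61 with 88. Among subunits of AP-1, the dimeric factor of Fos and Jun proteins, Fosb had 3580 and 3347 after kainate, against 239 and 194 after saline. Fos had 18480 and 16432 after kainate, against 2293 and 1417 after saline. Junb had 4015 and 2678 after kainate, against 799 and 345 after saline. The log2 changes of these 3 genes were 3.88, 3.26 and 2.59, and the groups did not overlap.

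The other AP-1 subunits moved less. Fosl2 rose by 1.46 and Jun by 1.30, whereas Jund had a change of 0.63 that did not pass the test (limma adjusted p = 0.324). Csrnp1, a nuclear protein with transcriptional activity, rose by 2.26 (SE 0.21). Ier2, a nuclear immediate-early protein, rose by 2.41 (SE 0.34). Maff, a small Maf protein, had 286 and 247 after kainate, against 77.0 and 15.9 after saline, and rose by 2.23. Nfil3, a leucine zipper repressor, had 1242 and 626 after kainate, against 242 and 146 after saline, and rose by 2.10. Among the Nr4a orphan nuclear receptors Nr4a2 rose by 1.89, Nr4a1 by 1.72 and Nr4a3 by 1.66, and the 3 other probe sets of Nr4a2 rose too, by 1.78 to 1.90. Among the Egr zinc finger factors Egr4 rose by 1.92, Egr3 by 1.18 and Egr1 by 0.96. Egr1 was already bright after saline, with 18009 and 17864 after kainate, against 11329 and 7441 after saline. Klf4 (1.63), Cebpd (1.03) and the clock gene Per1 (0.93) completed the 20 members that rose. Crem, which encodes activators and repressors that bind the cyclic AMP response element, had 885 and 755 after kainate, against 480 and 425 after saline (limma adjusted p = 0.122). Of the 20 members 8, namely Npas4, Atf3, Fosb, Fos, Csrnp1, Egr4, Nr4a2 and Nr4a3, passed without the replicate block and whichever wild-type array was left out, and Junb passed whichever was left out. The other 11 lost the call without saline replicate 2, with adjusted p between 0.121 (Ier2) and 0.364 (Jun and Egr3). Jun and Per1 lost it whichever wild-type array was left out, with adjusted p between 0.0857 and 0.364 for Jun and between 0.0629 and 0.326 for Per1. Without kainate replicate 1 the adjusted p was also 0.0849 for Maff, 0.13 for Nfil3, 0.105 for Fosl2, 0.179 for Klf4, 0.105 for Egr3 and 0.0921 for Cebpd. Without kainate replicate 2 it was 0.0893 for Maff, 0.23 for Egr1, 0.132 for Egr3 and 0.0661 for Nr4a1, and without saline replicate 1 it was 0.0926 for Fosl2, 0.0819 for Klf4 and 0.0647 for Egr1.

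**Figure D2:**
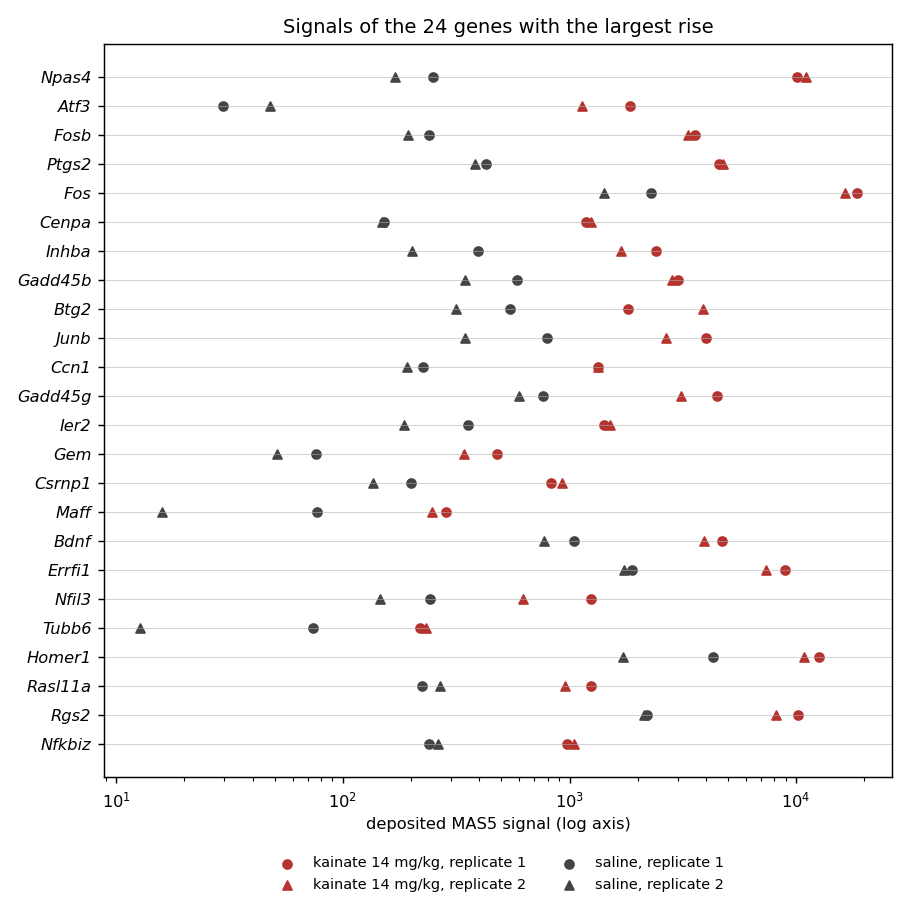
Deposited signal (log axis) of the 24 genes with the largest rise on each wild-type array, kainate at 14 mg/kg in red and saline in grey, circles for replicate 1 and triangles for replicate 2. In every one of the 24 genes both kainate arrays lie to the right of both saline arrays, from Npas4 with 10106 and 11054 against 251 and 170 to Nfkbiz with 972 and 1046 against 240 and 262.

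Promoter windows of 250 bases before to 50 after the start were matched by symbol to 69 of the 82 risen genes (105 windows) and to all 12 fallen genes (22 windows), using RefSeq sequence on GRCm38.p6. The cyclic AMP response element that CREB binds, TGACGTCA, stood in 8 of the 105 windows of risen genes (7.62%), in 0 of the 22 windows of fallen genes and in 2.82% of the 13716 windows of all genes tested. The 8 genes were Btg2, Dusp1, Errfi1, Maff, Nsmce3, Pcsk1, Plk2 and Scg2. The shorter TGACG, which is part of the full element, stood on either strand in 50 windows of risen genes (47.6%), in 6 windows of fallen genes (27.3%) and in 29.5% of windows of all genes tested. The AP-1 element, TGACTCA or TGAGTCA, stood in 3.81% of windows of risen genes, against 3.80% over all genes tested. The serum response element stood in 1.91% of them, against 1.28%, and the E-box CACGTG in 12.4%, against 9.38%. Windows of 1 gene can overlap, and a match describes the letters of the window only. The windows of Npas4 and Fos, transcription factor genes among the largest rises, and of Errfi1 and Dusp1, feedback inhibitors with a full element, are printed in the sense of the gene. Capitals mark TGACG or its complement CGTCA in Npas4 (chr19:4989922-4990221, minus strand, 179 and 169 bases before the start) and TGACG in Fos (chr12:85473640-85473939, plus strand, 129 and 66 bases before the start). They mark TGACGTCA in Errfi1 (chr4:150854820-150855119, plus strand, 51 bases before the start) and in Dusp1 (chr17:26508423-26508722, minus strand, 143 bases before the start).
Npas4: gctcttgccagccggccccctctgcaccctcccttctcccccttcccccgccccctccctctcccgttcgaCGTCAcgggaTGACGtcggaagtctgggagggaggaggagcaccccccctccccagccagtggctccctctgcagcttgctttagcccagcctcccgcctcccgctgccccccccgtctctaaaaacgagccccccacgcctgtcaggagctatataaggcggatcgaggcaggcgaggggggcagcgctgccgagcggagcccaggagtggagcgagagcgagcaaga
Fos: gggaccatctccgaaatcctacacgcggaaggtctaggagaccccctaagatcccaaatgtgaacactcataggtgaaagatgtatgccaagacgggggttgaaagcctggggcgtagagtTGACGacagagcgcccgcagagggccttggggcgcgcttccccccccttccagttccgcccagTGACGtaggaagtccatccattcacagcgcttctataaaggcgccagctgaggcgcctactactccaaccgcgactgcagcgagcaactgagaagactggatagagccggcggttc
Errfi1: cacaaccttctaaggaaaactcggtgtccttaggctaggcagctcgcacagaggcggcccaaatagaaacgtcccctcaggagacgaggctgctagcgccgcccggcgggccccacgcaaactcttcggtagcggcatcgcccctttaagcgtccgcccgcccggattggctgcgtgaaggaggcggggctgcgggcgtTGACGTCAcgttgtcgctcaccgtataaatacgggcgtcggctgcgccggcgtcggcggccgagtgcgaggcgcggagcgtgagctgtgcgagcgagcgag
Dusp1: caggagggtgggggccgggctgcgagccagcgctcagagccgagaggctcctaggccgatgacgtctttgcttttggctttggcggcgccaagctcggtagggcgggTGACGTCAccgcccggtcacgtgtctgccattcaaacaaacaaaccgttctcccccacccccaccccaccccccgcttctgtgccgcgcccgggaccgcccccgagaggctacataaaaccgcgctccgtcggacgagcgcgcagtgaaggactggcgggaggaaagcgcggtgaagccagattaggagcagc

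Genes for synaptic and secreted proteins formed the next group: 9 of 23 measured members rose and 0 fell, with a median change of 0.84. Over all genes tested 0.62% rose and 0.0908% fell. Ptgs2, which encodes cyclooxygenase 2, the inducible enzyme of prostaglandin synthesis, had 4575 and 4760 after kainate, against 428 and 385 after saline, a log2 change of 3.45 (SE 0.26, limma adjusted p = 7.47e-06). Bdnf, the neurotrophin that signals through TrkB, had 4716 and 3901 after kainate, against 1049 and 773 after saline, a change of 2.22 (SE 0.21, limma adjusted p = 6.25e-05). Pcdh8, an activity-induced protocadherin, had 15049 and 15276 after kainate, against 3729 and 4526 after saline, and rose by 1.88 (SE 0.13). The groups were far apart in these 3 genes, and each passed without the block and whichever wild-type array was left out. Inhba, the subunit of activin A, had 2404 and 1679 after kainate, against 393 and 202 after saline, and rose by 2.74. Ccn1, a secreted matrix protein, had 1330 and 1333 after kainate, against 227 and 191 after saline, and rose by 2.55. Homer1, a postsynaptic scaffold with a short activity-induced form, had 12575 and 10812 after kainate, against 4297 and 1726 after saline, and rose by 2.09. Its 5 other probe sets changed by -0.02 to 2.96, so that the probe sets of Homer1 disagreed. The prohormone convertase Pcsk1 (1.45), the pentraxin Ptx3 (1.39) and the granin Scg2 (1.16) also rose. Without saline replicate 2 the adjusted p was 0.237 for Inhba, 0.177 for Ccn1, 0.0929 for Homer1, 0.24 for Pcsk1, 0.287 for Ptx3 and 0.109 for Scg2. Without kainate replicate 1 it was 0.0851 for Inhba, 0.0618 for Ccn1, 0.152 for Pcsk1, 0.111 for Ptx3 and 0.0818 for Scg2, without kainate replicate 2 it was 0.101 for Ptx3, and without saline replicate 1 it was 0.0804 for Scg2. The neuropeptide gene Tac1 had 2277 and 4311 after kainate, against 1464 and 2161 after saline, and did not pass (limma adjusted p = 0.127). Tac1 also belongs to the striatal marker list described below, and kainate replicate 2 was its brightest array. Nrn1, a secreted growth-promoting protein, had 10878 and 7966 after kainate, against 6947 and 4688 after saline (limma adjusted p = 0.0849).

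Some genes that limit signalling also rose. Of 13 measured feedback inhibitors of MAP kinase and receptor tyrosine kinase signalling 4 rose and 0 fell, against 0.62% and 0.0908% of all genes. In both pairs 7 were higher and 2 lower, against 2901 higher and 4404 lower of all 13218 genes. The median change of the list was 0.72. The median was 0.28 in pair 1 and 0.72 in pair 2, and it was 0.173 without saline replicate 2. Errfi1, an inhibitor of the EGF receptor, had 8936 and 7388 after kainate, against 1881 and 1732 after saline, a log2 change of 2.16 (SE 0.20, limma adjusted p = 6.88e-05). The MAP kinase phosphatase Dusp1 had 5575 and 4404 after kainate, against 1810 and 992 after saline, and rose by 1.87. Dusp4, a nuclear phosphatase of the same family, had 1243 and 1056 after kainate, against 449 and 380 after saline, and rose by 1.42. Spry2, an inhibitor of receptor tyrosine kinase signalling, rose by 0.82. In each of these 4 genes both kainate arrays were above both saline arrays. Dusp5 had 1193 and 691 after kainate, against 331 and 280 after saline, and missed the threshold (limma adjusted p = 0.0632). Dusp6, the cytoplasmic phosphatase of ERK, had 3301 and 3375 after kainate, against 2330 and 997 after saline (limma adjusted p = 0.106). Errfi1 passed whichever wild-type array was left out. Without saline replicate 2 the adjusted p was 0.0758 for Dusp1 and 0.0693 for Dusp4. Spry2 lost its call whichever wild-type array was left out, with adjusted p between 0.066 and 0.177.

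Small GTPases and regulators of G proteins showed 6 rises and 0 falls among 14 measured members, against 0.62% and 0.0908% of all genes tested. The median change of the list was 0.68. Gem, a GTPase that inhibits voltage-gated calcium channels, had 477 and 342 after kainate, against 75.8 and 51.4 after saline, and rose by 2.33 (SE 0.27, limma adjusted p = 0.000505). Rasl11a, a Ras-like protein, had 1238 and 958 after kainate, against 224 and 269 after saline, and rose by 2.06. Rgs2, which speeds GTP hydrolysis by G protein alpha subunits, had 10145 and 8108 after kainate, against 2198 and 2137 after saline, and rose by 2.05. Its relative Rgs4 had 10478 and 9588 after kainate, against 4874 and 3866 after saline, and rose by 1.20. The groups were apart in all 4 genes, and all 4 passed without the block and whichever wild-type array was left out. The Ras-related Rasd1 also rose, by 1.19, with an adjusted p of 0.227 without saline replicate 2 and of 0.0818 without kainate replicate 1.

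Smaller groups held a few rises each. Of 17 growth arrest and DNA damage genes 4 rose, against 0.62% of all genes tested, with a list median of 0.42. Gadd45b, which activates stress kinases and takes part in DNA demethylation, had 3006 and 2844 after kainate, against 586 and 345 after saline, and rose by 2.64 (SE 0.29, limma adjusted p = 0.000298). Gadd45g had 4496 and 3095 after kainate, against 764 and 600 after saline, and rose by 2.42. The antiproliferative gene Btg2 had 1811 and 3876 after kainate, against 548 and 315 after saline, and rose by 2.61. Tnfrsf12a, the receptor of the cytokine TWEAK, rose by 1.46. Gadd45b passed whichever wild-type array was left out. Without saline replicate 2 the adjusted p was 0.0693 for Gadd45g and 0.189 for Btg2, and without kainate replicate 2 it was 0.0661 for Btg2. Tnfrsf12a lost its call whichever wild-type array was left out, with adjusted p between 0.0625 and 0.604. Ppp1r15a, which directs dephosphorylation of eIF2alpha, had 773 and 802 after kainate, against 432 and 341 after saline (limma adjusted p = 0.0893).

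The counts of rises in the lists that follow stand beside 0.62% of all genes tested. Of 12 activity-induced kinases 3 rose. These were Pim1 by 1.87, Plk2, which acts at dendritic spines, by 1.25 and Sgk1, a kinase of the AGC family, by 1.16. Pim1 had 332 and 606 after kainate, against 99.2 and 115 after saline. Its other probe set changed by 0.81, and Pim1 did not pass without the replicate block (limma adjusted p = 0.185). Trib1, a pseudokinase, had 461 and 373 after kainate, against 198 and 27.4 after saline, and did not pass (limma adjusted p = 0.197). Of 15 regulators of mRNA decay and translation 3 rose: Btg2, Zfp36 (1.40), which binds AU-rich elements, and Noct (0.69). Of 14 cytokine, chemokine and NF-kappaB genes 2 rose. Nfkbiz, a nuclear I-kappaB protein, had 972 and 1046 after kainate, against 240 and 262 after saline, and rose by 1.92. Socs3, an inhibitor of JAK-STAT signalling, had 557 and 406 after kainate, against 114 and 172 after saline, and rose by 1.62. The chemokine Cxcl1 had 326 and 507 after kainate, against 118 and 330 after saline, values that overlapped and did not pass (limma adjusted p = 0.122). Of 17 neuropeptide precursors 1 rose, Nts, which encodes neurotensin, with 1170 and 1097 after kainate, against 595 and 666 after saline. Of these genes Pim1 passed whichever wild-type array was left out. Without saline replicate 2 the adjusted p was 0.109 for Plk2, 0.24 for Sgk1, 0.35 for Zfp36, 0.268 for Noct, 0.0945 for Nfkbiz, 0.109 for Socs3 and 0.394 for Nts. Without kainate replicate 1 it was 0.0986 for Sgk1, 0.199 for Noct, 0.141 for Socs3 and 0.344 for Nts, without kainate replicate 2 it was 0.214 for Zfp36, 0.0917 for Noct and 0.0735 for Nts, and without saline replicate 1 it was 0.145 for Noct, 0.11 for Socs3 and 0.235 for Nts.

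**Figure D3:**
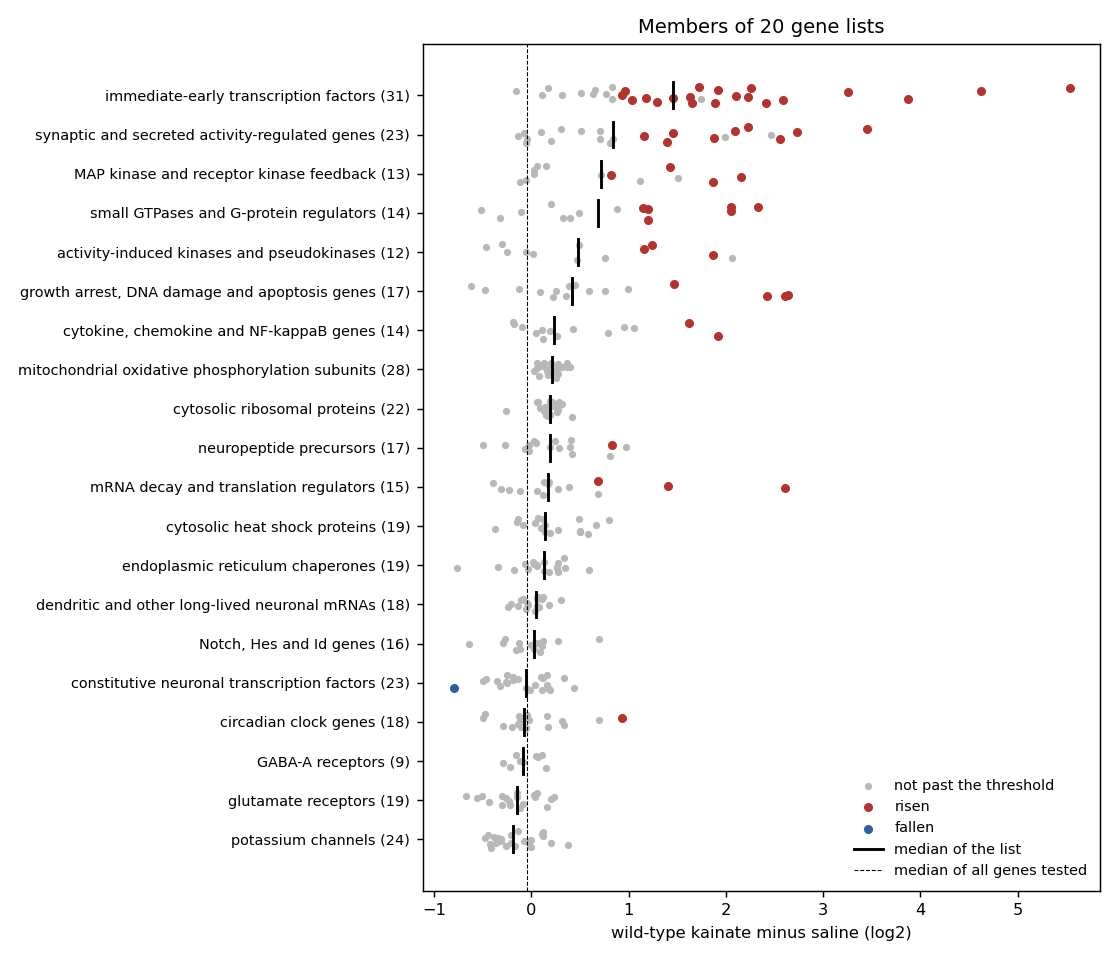
Each point is a measured member of 1 of 20 gene lists, placed by its kainate minus saline change in wild-type hippocampus (log2), with the number of members in parentheses. Thick bars are list medians, from 1.46 for immediate-early transcription factors to -0.19 for potassium channels, and the dashed line is the median of all genes, -0.05.

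Some genes that rose stood outside these lists, and of these Ifrd1, Mest and Tiparp were named after their values were seen. Cenpa, which encodes the histone H3 variant of centromeres, had 1178 and 1248 after kainate, against 151 and 148 after saline, and rose by 2.84 (SE 0.17, limma adjusted p = 6.72e-07). Tubb6, a beta tubulin, had 218 and 232 after kainate, against 73.6 and 12.7 after saline, and rose by 2.10, whereas its other probe set changed by -0.69. Ifrd1, a transcriptional coregulator, had 5399 and 3614 after kainate, against 1292 and 1116 after saline, and rose by 1.86. Mest, an imprinted gene, had 2897 and 2918 after kainate, against 822 and 1015 after saline, and rose by 1.65. Tiparp, a poly(ADP-ribose) polymerase, had 3137 and 3063 after kainate, against 815 and 861 after saline, and rose by 1.86. Cenpa, Ifrd1 and Mest passed without the block and whichever wild-type array was left out. Tubb6 had an adjusted p of 0.51 without saline replicate 2, 0.225 without kainate replicate 2 and 0.0967 without kainate replicate 1, and Tiparp of 0.16 without saline replicate 2 and 0.067 without kainate replicate 1. Of the 82 risen genes 38 had other tested probe sets, and for 31 of these every other probe set was higher after kainate. For 16 another one rose too in a limma fit of the 23683 tested probe sets that name 1 gene, adjusted over them. Some called probe sets, such as those of Jun and Egr3, did not pass in that fit.

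Several other groups held no called member. Notch, Hes and Id genes, glutamate receptors, GABA-A receptors and potassium channels each had 0 rises and 0 falls by limma. So did the listed cytosolic heat shock proteins, endoplasmic reticulum chaperones, long-lived neuronal mRNAs, cytosolic ribosomal proteins and oxidative phosphorylation subunits. Hspa14, which rose by 0.87, was not a member of the heat shock list. Of the 174 genes of these lists 29 had a limma unadjusted p under 0.05, against 1289 of all 13218 genes. They were unevenly spread: 7 of 19 heat shock proteins (1 of them lower), 7 of 28 oxidative phosphorylation subunits (0 lower) and 0 of 9 GABA-A receptors. Of 18 circadian clock genes 1 rose, Per1, against 0.62% of all genes tested, and the list median was -0.08. Of 24 potassium channels 12 were lower after kainate in both pairs and 1 was higher, against 4404 lower and 2901 higher of all 13218 genes. The list median was -0.19, with -0.24 in pair 1 and -0.06 in pair 2. Over all genes tested the pair medians were -0.02 and -0.07. Kcnq5, a subunit of the M current, had 822 and 1004 after kainate, against 1114 and 1325 after saline (limma adjusted p = 0.379). The metabotropic glutamate receptor gene Grm2 had 446 and 522 after kainate, against 841 and 729 after saline (limma adjusted p = 0.334). Of 28 oxidative phosphorylation subunits 23 were higher in both pairs with a median of 0.21, and of 22 ribosomal protein genes 17 were higher in both with a median of 0.20. These 2 medians were 0.0694 and 0.0662 after quantile normalization and 0.0864 and 0.0948 after cyclic loess.

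The 12 falls were smaller than most rises, and none of them passed without the replicate block, without the intensity trend or without saline replicate 2. Lrp8, a receptor of reelin and apolipoprotein E, had 372 and 385 after kainate, against 808 and 803 after saline, a log2 change of -1.05 (SE 0.18, limma adjusted p = 0.0107). Mef2c, an activity-regulated transcription factor of excitatory neurons, had 2966 and 3644 after kainate, against 5556 and 5924 after saline, a change of -0.80 (SE 0.14, limma adjusted p = 0.0149). Its 4 other probe sets changed by -0.80 to -0.44, whereas those of Lrp8 changed by -0.11 and -0.01. In both genes the kainate arrays lay close together and well below the saline arrays. Car7, a cytosolic carbonic anhydrase of neurons, had 441 and 397 after kainate, against 913 and 795 after saline, a change of -0.99. Car10, a related protein without enzyme activity, had 840 and 981 after kainate, against 1386 and 1640 after saline, a change of -0.72. Of the 12 fallen genes 8 had other tested probe sets, and for 6 of these every other probe set was lower after kainate. For 0 another one fell in a limma fit of the 23683 tested probe sets that name 1 gene, adjusted over them. In that fit the called probe sets of Mef2c, Car7 and Lrp8 passed. Those of Car10, Vopp1, Ipcef1, Zfp84 and Tmem200a did not. The other probe set changed by -0.04 for Car10 and by -0.05 for Ipcef1, and those of Zfp84 changed by -0.44 and 0.05. With probe sets of possibly shared sequence (_s_at, _x_at and _a_at) left out, Car7 was represented by another probe set, with a change of 0.31. Fewer cells of a type and less RNA per cell cannot be told apart in these pooled tissues.

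Hoxa9, a homeobox gene, had 11.7 and 46.6 after kainate, against 89.1 and 191 after saline, the largest fall at -1.68. Pmf1, which encodes a kinetochore protein, had 13.9 and 41.9 after kainate, against 112 and 138 after saline, a change of -1.61. Both genes were dim on all 4 arrays, and with 88 added in place of 22 their changes were -0.94 and -0.89 and did not pass (limma adjusted p = 0.0706 and 0.113). Tmem200a, a transmembrane protein, had 152 and 309 after kainate, against 363 and 582 after saline, a change of -1.01. The sialyltransferase gene St6gal2 had 258 and 384 after kainate, against 651 and 638 after saline, a change of -0.98. Rps6kc1, a member of the ribosomal S6 kinase family, had 520 and 231 after kainate, against 870 and 552 after saline, a change of -0.95. For these 3 genes every kainate array was below every saline array. The zinc finger gene Zfp84 had a change of -0.94, Ipcef1, a partner of cytohesins, of -0.91 and Vopp1 of -0.83. Leaving out kainate replicate 1 kept the call of Rps6kc1 alone (limma adjusted p = 0.0336), leaving out kainate replicate 2 kept those of Lrp8 and St6gal2 (0.0218 and 0.0167), and leaving out saline replicate 1 kept none. Without saline replicate 2 the adjusted p of the 12 genes ran between 0.0554 and 0.604.

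**Figure D4:**
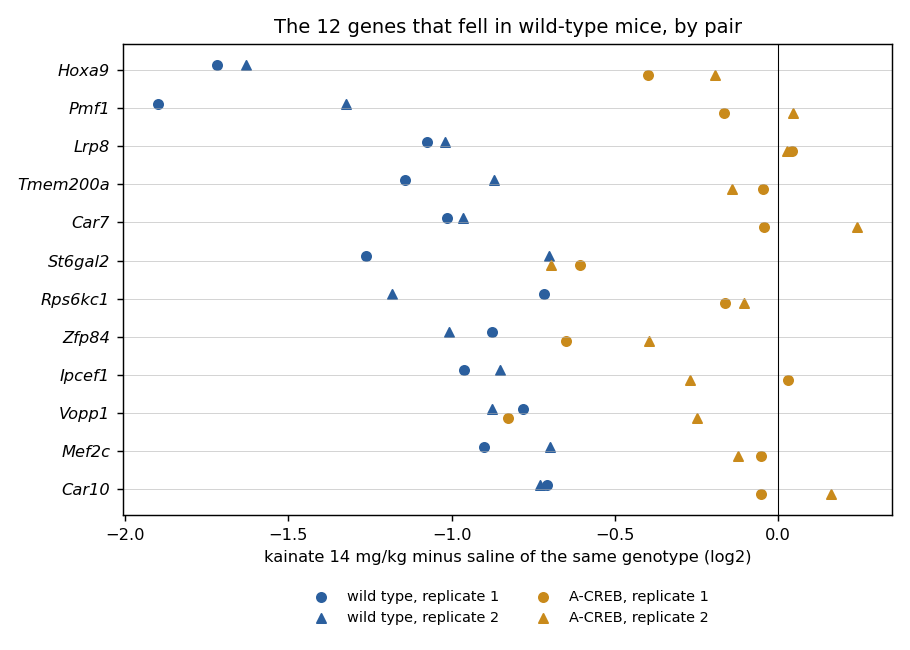
Kainate minus saline difference, log2(signal + 22), of the 12 genes that fell in wild-type mice, for the pairs of wild-type arrays (blue) and of A-CREB arrays at the same dose (yellow), circles for replicate 1 and triangles for replicate 2. The wild-type differences lie between -1.90 and -0.70, and the A-CREB differences lie between -0.83 and 0.24.

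Cell type markers were at similar levels in both groups for most lists, and 0 of 101 markers passed limma's test, 13 having an unadjusted p under 0.05, against 1289 of all 13218 genes. Of the listed markers 12 of 13 for pyramidal cells and 12 of 12 for granule cells passed the filter on low signals, as did 10 of 12 each for striatum and choroid plexus, so that the filter alone does not set the labelled tissue apart. The list medians were 0.05 for hippocampal pyramidal cells, 0.01 for dentate granule cells, -0.01 for GABAergic interneurons, -0.09 for astrocytes and 0.01 for oligodendrocytes. Markers of the striatum, a neighbouring structure, set kainate replicate 2 apart: their summed signal over 10 markers was 5819 and 19895 after kainate, against 5416 and 8512 after saline. The dopamine receptor gene Drd1 had 164 and 1659 after kainate, against 302 and 733 after saline. Penk, the enkephalin precursor, had 909 and 3351 after kainate, against 741 and 1044 after saline. Pde10a, a phosphodiesterase of striatal projection neurons, had 1057 and 5486 after kainate, against 1192 and 1965 after saline. In each of these 3 genes kainate replicate 2 was the brightest array, and the 6 A-CREB arrays had summed signals of 5100 to 7001. Arpp21, a regulator of calmodulin that the striatum also expresses, had 7817 and 10204 after kainate, against 5163 and 2359 after saline. It rose by 1.35, with pair differences of 0.60 and 2.10. In A-CREB mice at the same dose its pair differences were 1.28 and 1.72. In wild-type mice its 3 other probe sets changed by -0.49 to 1.54. Without kainate replicate 2 its change was 1.06 (limma adjusted p = 0.265). The part of striatal RNA in the rises of other genes was not tested. Without that array 67 genes rose, 58 of them among the 82, and saline replicate 2, with the next highest striatal sum, stayed in that fit. Choroid plexus markers had a median of -0.08, with 0.12 in pair 1 and -0.38 in pair 2, and microglial markers a median of 0.07, with -0.22 and 0.45.

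**Figure D5:**
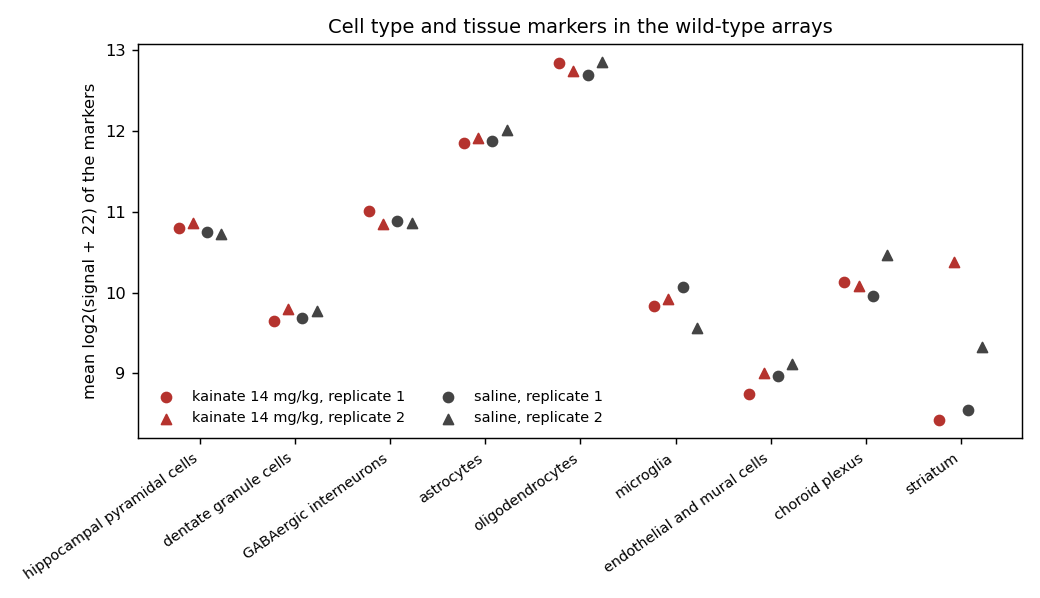
Mean log2(signal + 22) over the markers of 9 cell types or tissues on each wild-type array, kainate at 14 mg/kg in red and saline in grey, circles for replicate 1 and triangles for replicate 2. The arrays lie close together for neurons, astrocytes and oligodendrocytes, and for the striatum they lie at 8.42 and 10.38 after kainate, against 8.55 and 9.33 after saline.

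The rises seen in wild-type mice were set beside the same dose in A-CREB mice, which have saline arrays of their own. All 82 risen genes were higher after kainate in both A-CREB pairs, which holds for 24.8% of all genes, and 74 of them rose there by limma, which called 1.1% of all genes as risen. The 8 that did not pass there were Ptx3, Nsmce3, C2cd4b, Pvr, Mir22hg, Hspa14, Arid5b and Ddx5. Npas4 had 16278 and 12170 after kainate in A-CREB mice, against 160 and 148 after saline. The median change of the 82 genes was 1.82 in A-CREB mice and 1.47 in wild-type mice, where the genes were chosen. Of the 12 fallen genes 7 were lower after kainate in both A-CREB pairs, against 32.7% of all genes, 0 fell there by limma (3 had an unadjusted p under 0.05), and their changes ran between -0.65 and 0.10.

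The difference between the responses, A-CREB minus wild type, passed for 0 of 13218 genes by limma (smallest adjusted p = 0.9998), and 473 genes had an unadjusted p under 0.05. Among the 82 risen genes 7 had such a p, and among the 12 fallen genes 9 did. Car7 had 648 and 533 after kainate, against 669 and 447 after saline, in A-CREB mice, and its difference between the responses was 1.09 (SE 0.25, limma unadjusted p = 0.000589). The genes with smaller p were Zfas1, Pdzrn3, Gbp2 and Bmp2, none of which rose or fell in wild-type mice. Bmp2, a bone morphogenetic protein, had 406 and 487 after kainate, against 162 and 167 after saline, in A-CREB mice, and 203 and 272 after kainate, against 246 and 254 after saline, in wild-type mice. Since the 12 falls were chosen for their wild-type change, that change enters their difference from A-CREB mice, and the 9 genes are given as a description.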

How the data were processed

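The deposited values are intensity, 1 linear MAS5 signal per probe set, made by the authors with MAS5 in GCOS, per the submitters' processing notes, with versions and settings not given in the sources used here. Of 45101 probe sets 64 controls were left out, and 34945 named 1 gene in a platform table. Signals were taken as log2(signal + 22). Median signals ran between 94.9 and 106 on replicate 1 arrays and between 135 and 152 on replicate 2 arrays. Probe sets in the upper 60% by mean over all arrays were kept, each gene taking the probe set with the highest mean, which gave 13218 genes. All 10 arrays were fitted in R 4.3.3 by limma 3.58.1, using lmFit and an intensity-trended eBayes with 4 residual degrees of freedom, with the replicate number as a block because the comparison pairs arrays by that number. What these numbers stand for is not given in the labels. Deviations of same-numbered arrays from their group means correlated at 0.518 to 0.642 over 10 pairs of groups, and each of the 10 arrays had its highest correlation with a same-numbered one. Tests were two-sided, with a Benjamini-Hochberg adjusted p under 0.05 over all genes.

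Genes to be named were the 24 largest rises and 12 largest falls whose groups do not overlap. To these came the 5 smallest p for the difference between genotypes and the 4 members with the smallest p in each list. Not all of these list members are given in the text. Other genes were named after their values were seen. The comparison, the gene lists and the markers were chosen with earlier results of these data known. The procedure was tested on simulated data drawn from the fitted model, which cannot show whether that model holds for the real arrays. Alternatives changed the pseudocount, filter, normalization, trend, variance, probe sets, arrays fitted and block. One result is not reported here.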

Additional observations from a re-analysis of the deposited data

How the results depend on the processing

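No called gene changed direction in any setting run but 1, where it had a value: 6 of the 94 had none in the upper 40% of probe sets and 10 had none without probe sets of possibly shared sequence. With those probe sets (_s_at, _x_at and _a_at) left out, 2 genes were read from another probe set and turned: Car7 to 0.311 and Gpr19 to -0.0114. The 82 rises and 12 falls became 24 and 0 in the fit with no replicate block, which does not use the pairing by number, 48 and 3 with no filter on low signals, 20 and 0 without the intensity trend, and 151 and 56 in a fit of only the 4 wild-type arrays. Averaging the probe sets of a gene gave 4 falls. Leaving out 1 array gave between 24 and 106 rises and between 0 and 23 falls. Falls numbered 6 when either A-CREB kainate 14 array was left out, 23 without A-CREB saline replicate 1 and 22 without A-CREB saline replicate 2, in which the wild-type arrays were the same. Leaving out 1 array gave between 0 and 2 genes whose response differed between A-CREB and wild type. The causes of these changes were not tested. These settings also differ in how many probe sets are tested or how many arrays are fitted.

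Over the fits that left out 1 array, the median change ran between 0.764 and 1.23 for synaptic and secreted genes, 0.173 and 0.764 for MAP kinase feedback, 0.235 and 0.785 for activity-induced kinases and 0.255 and 0.69 for growth arrest genes. It ran between -0.164 and 0.36 for microglia, -0.356 and 0.257 for choroid plexus, -0.309 and 1.32 for striatum and -0.109 and 0.397 for blood cells. The blood cell list had 2 measured members, and its median was -0.123 with no filter, -0.131 in the upper 40% of probe sets and 0.419 without the probe sets of shared sequence. Immediate-early transcription factors kept a median between 1.31 and 1.64. The distance between signal and background is not given in the files, so dim genes such as Hoxa9, Pmf1, Maff and Tubb6 have uncertain folds.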

Other observations

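A few genes moved in 1 pair only or in opposite directions in the 2 pairs, and were named here after their values were seen. Otub1, a deubiquitinase, had signals of 691 and 549 after kainate, against 1029 and 7.31 after saline, with pair differences of -0.56 and 4.28, so that the second difference rests on 1 dim saline array. Gh, which encodes growth hormone, had 79.3 and 196 after kainate, against 40.5 and 1233 after saline, with pair differences of 0.70 and -2.52. Serpinb6e, a serine protease inhibitor, had 278 and 239 after kainate, against 295 and 1927 after saline, with pair differences of -0.08 and -2.90. Saline replicate 2 was the array that stood apart in all 3 genes. Gpr27, an orphan G-protein-coupled receptor of the brain, had 74.4 and 117 after kainate, against 347 and 38.1 after saline, with pair differences of -1.94 and 1.21.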
